A study of Mus musculus with 14 samples.

Results

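The autophagy machinery is described here in the livers of 14 male C57Bl/6J mice, as a list of 38 genes that runs from the initiating kinase complex to the lysosomal membrane. The mice ate isocaloric diets that held palatinose (7 mice) or sucrose (7 mice), were kept free of specific pathogens, and gave 1 Illumina beadchip array each. Titles give 22 weeks on the diet and the age label gives 18 weeks, and the labels do not say when that age was taken. Sucrose and palatinose (isomaltulose) are isomers of glucose joined to fructose, and palatinose is digested more slowly; the series' title names fatty liver, insulin resistance and the incretin GIP as its subject. Genes were listed by name, and the measured ones were selected by detection: a gene was measured if at least 1 of its probes was detected (detection p-value under 0.05) on 7 or more of the 14 arrays. By this rule 30 of the 38 genes were measured, among 8146 named genes and 683 unnamed probes (8829 features) tested in all. Of the other genes, Rb1cc1, Atg4a and Tfeb had named probes that were not kept, and Pik3r4, Atg14, Atg9a, Atg16l2 and Optn had no probe that is named here. The measured gene nearest the limit was Atg4c, detected on 11 arrays, and the nearest one outside it was Tfeb, detected on 1 array.

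Autophagy wraps a piece of cytoplasm in a membrane and delivers it to the lysosome for breakdown. The ULK kinase complex starts the process when nutrients are short and mTORC1 is inactive. A lipid kinase complex around Becn1 and Pik3c3 then marks the membrane with PI3P, Atg9a and Atg2 proteins supply it with lipid, and ubiquitin-like conjugation attaches LC3 and GABARAP proteins to it. Cargo receptors such as Sqstm1 (p62) bind both the cargo and LC3. In liver, autophagy provides amino acids in fasting, removes damaged mitochondria and takes up part of the lipid droplets, and the transcription factor TFEB, which binds E-box motifs in the CLEAR elements of lysosomal and autophagy promoters, raises its gene expression.

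Promoters are shown because TFEB acts through them while the array did not measure its transcript. RefSeq promoters of build GRCm38.p6, from 250 bases before to 50 bases after the start site, were matched by symbol for 32 of the 38 genes and searched on both strands for CACGTG, the E-box core, and for TCACGTG, which contains it. CACGTG stood in the promoters of 5 of these 32 genes (Atg3, Atg5, Atg7, Atg14 and Lamp1) and of 8.09% of 27025 genes with a promoter in the same table. TCACGTG stood in 4 of the 32 (all of these but Atg5) and in 4.29% of all. The stretches of the 4 measured genes run 5′ to 3′ on the gene's strand with CACGTG in capitals. They lie at chr8:13159075-13159176 for Lamp1, chr16:45158710-45158788 for Atg3, chr6:114670939-114670994 for Atg7 and chr10:44268300-44268355 for Atg5, each on the plus strand.
Lamp1: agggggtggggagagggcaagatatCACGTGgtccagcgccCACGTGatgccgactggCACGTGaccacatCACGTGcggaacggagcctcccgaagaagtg
Atg3: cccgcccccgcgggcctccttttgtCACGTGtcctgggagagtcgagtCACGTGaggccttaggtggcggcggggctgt
Atg7: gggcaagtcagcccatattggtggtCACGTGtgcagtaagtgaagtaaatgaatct
Atg5: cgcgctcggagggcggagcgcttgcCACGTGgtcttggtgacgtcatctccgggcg
Lamp1 holds 4 such boxes between positions -61 and -15 from its start site and Atg3 holds 2, at -94 and -71. The promoter of Atg2a, the listed gene with the smallest p between the diets, is shown whole at chr19:6241418-6241717 on the plus strand, is 63.3% G and C, and has neither motif in this window.
Atg2a: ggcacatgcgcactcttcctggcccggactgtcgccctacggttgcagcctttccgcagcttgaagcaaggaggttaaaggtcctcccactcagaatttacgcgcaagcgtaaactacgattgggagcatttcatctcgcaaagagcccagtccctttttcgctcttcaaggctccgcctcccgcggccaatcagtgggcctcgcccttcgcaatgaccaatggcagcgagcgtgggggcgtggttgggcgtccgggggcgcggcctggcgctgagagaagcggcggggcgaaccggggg

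Each array detected 11457 to 12476 probes, and its mean signal was 190 to 257. Arrays are called by diet and the code in their column name, such as PAL_430_01. The sucrose array SUC_424_02 stood apart: it had the highest mean signal, the most detected probes and the lowest mean correlation with the other arrays (0.977 against 0.983 to 0.990), so results are also given without it. Of 6 hepatocyte markers on the array, 5 (Ttr, Apoa1, Serpina1a, Hnf4a and Ahsg) were detected on all 14 arrays (for markers, at a detection p-value under 0.01). Of 9 skeletal muscle markers, 7 to 9 were detected on PAL_407_04, PAL_417_03 and PAL_429_03 and 8 on SUC_415_02. Their summed signals before normalization were 12 to 5045 over palatinose arrays and 5 to 2813 over sucrose arrays. Of 9 pancreatic acinar markers, 9 were detected on SUC_415_02 and 5 on SUC_421_03, with sums of 203 to 343 over palatinose arrays and 220 to 4182 over sucrose arrays. Without these 5 arrays the mean difference between the diets was -0.02 over the 29 autophagy genes that were still kept, against 0.02 over 30 genes with all arrays, and 0 genes passed; their part in the results was not tested otherwise.

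No autophagy gene passed the test between the diets. With limma over all 8829 features, 0 of 30 measured genes had an adjusted p under 0.05, and of all features 0% did. Counting unadjusted p under 0.05, there were 5 of 30 genes, against 7.1% of all features: 3 with a positive difference (3.75% of all features) and 2 with a negative one (3.35%). Differences are on the log2 scale, palatinose minus sucrose. Positive differences were found for 17 genes and negative ones for 13, and 54.8% of all features had a positive one. The median difference was 0.02 over the 30 genes and 0.01 over all features, and the mean level of the 30 genes per array was 8.08 ± 0.04 with palatinose and 8.06 ± 0.04 with sucrose (SD, n = 7 each). Without SUC_424_02, 19 of the 30 genes had a positive difference, and 4 had an unadjusted p under 0.05 (Atg2a, Atg5, Atg13 and Becn1), against 7.19% of 8724 features, and 0 passed after adjustment with limma. In a bulk liver sample, a lower value from fewer cells of a type cannot be told apart from less RNA per cell.

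The 95% interval of the difference lay within 1.5-fold either way for each of the 30 genes, as it did for 95.3% of all features. These are intervals of 1 gene at a time and no joint bound. For Atg4b, Atg4c, Atg4d and Gabarapl2 the signal before normalization was 3 to 24 on each array, close to the added offset of 16, which draws differences of dim probes toward 0.

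**Figure D1:**
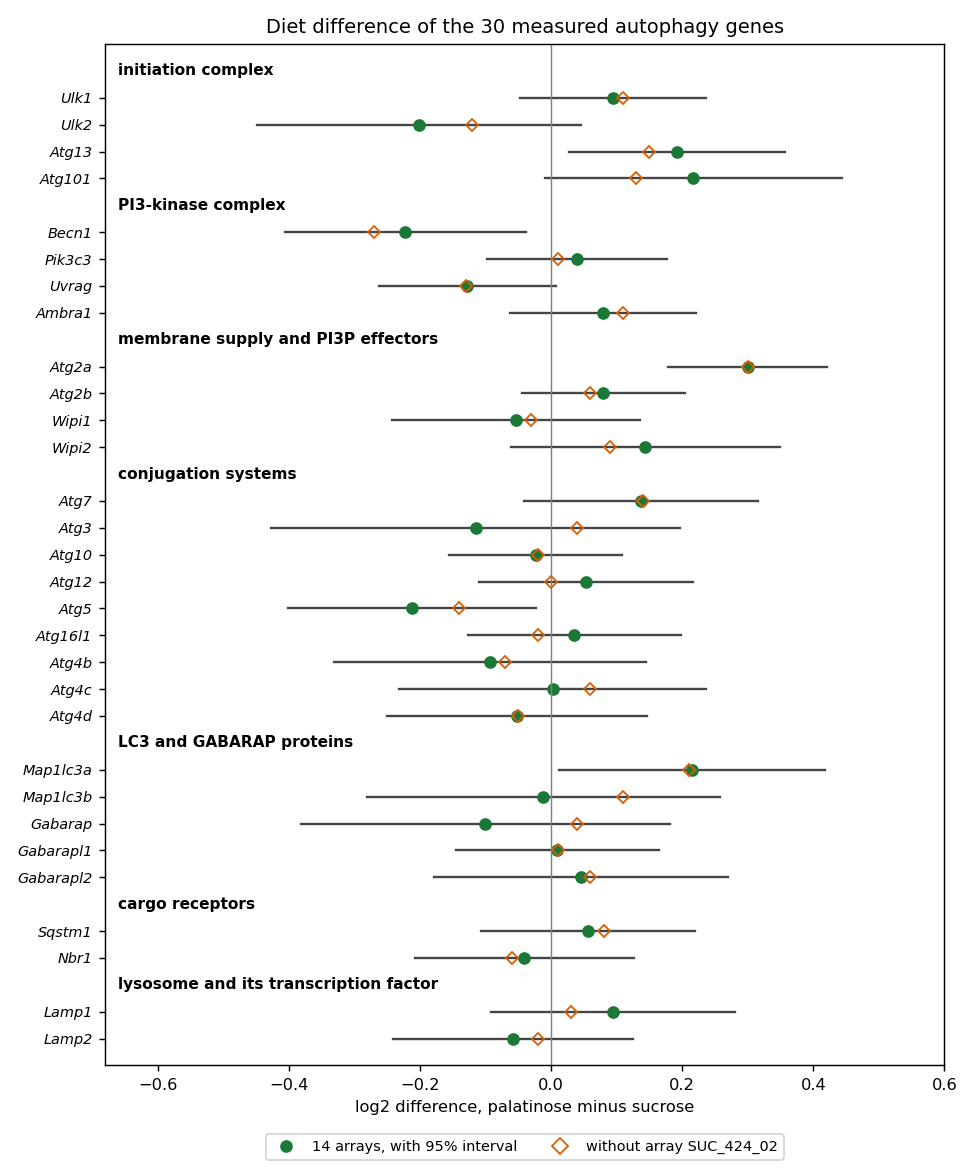
Log2 difference, palatinose minus sucrose, of the 30 measured autophagy genes by role, with 95% intervals from limma over 14 arrays (circles) and the estimate without array SUC_424_02 (open diamonds). Atg2a lies farthest to the right at 0.30, and the diamonds of Atg3, Gabarap and Map1lc3b lie above 0 while their circles lie below it.

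In the initiation complex, 4 of 5 genes were measured, and 3 differences were positive and 1 negative. Atg13, the regulatory subunit through which ULK is held in check by mTORC1, had a log2 level of 7.89 at the lowest, 8.02 at the median and 8.33 at the highest of 7 palatinose arrays, against 7.64, 7.89 and 8.01 for 7 sucrose arrays. The ranges overlapped, and each of the 7 palatinose arrays lay above the sucrose mean. The difference was 0.19 (95% interval 0.03 to 0.36, limma adjusted p = 0.681), and 0.15 without SUC_424_02, where the lowest value lay. Ulk2, one of the kinases, had 7.48, 7.71 and 7.995 with palatinose and 7.52, 7.88 and 8.37 with sucrose, the highest value being that of SUC_424_02. Its difference was -0.20 (-0.45 to 0.05, limma adjusted p = 0.733), and -0.12 without that array. Ulk1, the kinase best known for starting autophagy in fasting, gave 0.09 and 0.11 on its other probe. Atg101, which stabilises Atg13, gave 0.22, and 0.13 without SUC_424_02, where its lowest value lay.

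In the phosphoinositide kinase complex, 4 of 6 genes were measured, with 2 differences to each side. Becn1 (Beclin), the scaffold of the complex, had 6.07, 6.34 and 6.55 with palatinose, against 6.27, 6.54 and 6.70 with sucrose (lowest, median and highest of 7 arrays). On this main probe the lowest values were those of PAL_430_04 and PAL_430_01, which share the code 430. On palatinose, 6 of the 7 mice were below the mean of the sucrose group. The difference was -0.22 (-0.41 to -0.04, limma adjusted p = 0.681), and -0.10 on the other probe. Without SUC_424_02, the lowest sucrose array on the main probe of Becn1, that probe gave -0.27. The probes disagree on these arrays. On the other probe SUC_424_02 was the highest of all arrays, at 6.07, and PAL_430_04 the highest palatinose array, at 5.83. Uvrag, a subunit of the complex that acts at late endosomes, gave -0.13, with all 7 palatinose values under the sucrose mean. Pik3c3, the lipid kinase itself, gave 0.04 (0.01 without SUC_424_02) and Ambra1, a scaffold that regulates Becn1, gave 0.08.

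Among genes of membrane supply and PI3P binding, Atg2a had the largest difference of the 30. It encodes a lipid transfer protein that bridges the endoplasmic reticulum and the forming autophagosome. Its log2 level was 7.27 at the lowest, 7.39 at the median and 7.51 at the highest with palatinose, and 7.02, 7.11 and 7.15 with sucrose. Every palatinose array lay above every sucrose array, which held for 1 of the 30 genes and for 8 of 8829 features (0.0906%); the reverse held for 0 of the 30 genes and for 0.034% of features. The difference was 0.30 (0.18 to 0.42, limma adjusted p = 0.319), or 0.30 again without SUC_424_02. Earlier results of these data had drawn attention to this gene, so its separation is a description. The other kept probe of Atg2a, tested among 11628 single probes, gave 0.14 (-0.03 to 0.31, limma adjusted p = 0.681). On that probe the ranges overlapped, from 6.63 to 6.99 with palatinose and from 6.51 to 6.94 with sucrose.

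The arrays whose column code is 417 come from both diets: for Atg2a, PAL_417_02 and PAL_417_03 had 7.27 and 7.48, against 7.11 for SUC_417_01. The labels do not say what the code stands for. Atg2b, the paralogue of Atg2a, gave 0.08, with 7 of 7 palatinose arrays above the sucrose mean. Wipi2, which reads PI3P and recruits the LC3 conjugation machinery, gave 0.14 (0.09 without SUC_424_02) and its other probes -0.06 and 0.18. Wipi1, of the same family, gave -0.05 on its main probe (-0.03 without that array) and 0.08 and 0.09 on the others.

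**Figure D2:**
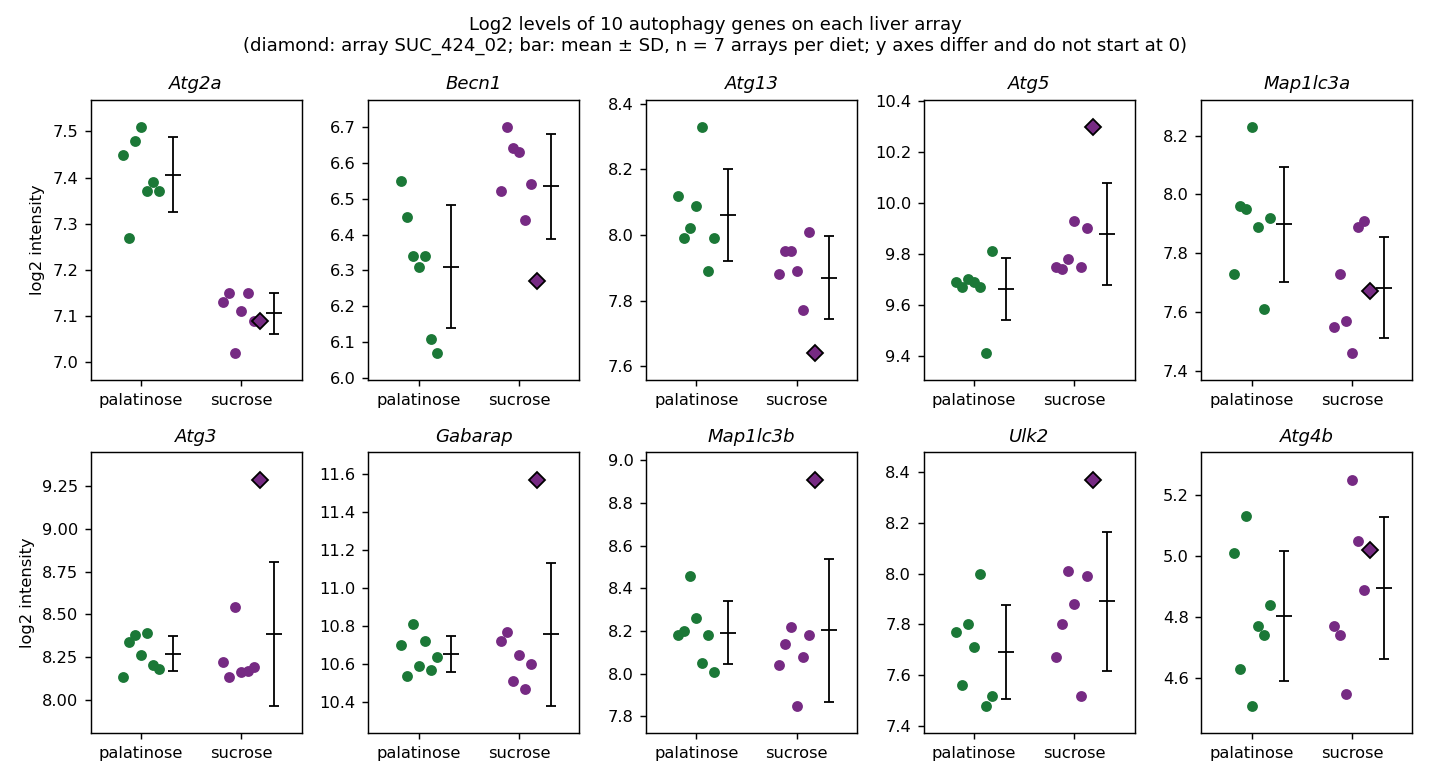
Log2 intensity of 10 autophagy genes on each array, palatinose on the left and sucrose on the right of each panel, with mean ± SD beside the points; the array SUC_424_02 is a diamond. The upper row holds the 5 genes with the smallest p and the lower row those with the largest SD within diets. Atg2a has no overlap between the diets, and for Atg3, Gabarap, Map1lc3b and Ulk2 the diamond is the highest point.

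In the conjugation systems, 9 of 11 genes were measured, and 4 differences were positive and 5 negative. Atg5, which joins Atg12 in the complex that directs LC3 to the membrane, had 9.41, 9.69 and 9.81 with palatinose and 9.74, 9.78 and 10.30 with sucrose. The lowest value was that of PAL_430_01 and the highest that of SUC_424_02, and all 7 palatinose values were under the sucrose mean. The difference was -0.21 (-0.40 to -0.02, limma adjusted p = 0.681), -0.14 without SUC_424_02, and -0.12 on the other probe.

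Atg3, the E2-like enzyme that transfers LC3 to lipid, had the largest SD within diets, at 0.31. It had 8.13, 8.26 and 8.39 with palatinose and 8.13, 8.19 and 9.29 with sucrose, so that 1 sucrose array, SUC_424_02, made the spread. Its difference was -0.12 (-0.43 to 0.20, limma adjusted p = 0.875), and 0.04 without that array. Atg7, the E1-like enzyme of both conjugation systems, gave 0.14, with 6 of 7 palatinose arrays above the sucrose mean. Atg4b, a protease that trims LC3 before conjugation, had 4.51, 4.77 and 5.13 with palatinose and 4.55, 4.89 and 5.25 with sucrose, a difference of -0.09 (-0.33 to 0.14, limma adjusted p = 0.867). The ranges of Atg4b nearly coincided, and the size of its difference depended on single arrays: it was -0.03 without SUC_417_01, -0.15 without SUC_415_02 and -0.15 without PAL_417_03, and -0.19 with an offset of 1. Differences were -0.05 for Atg4d and 0.00 for Atg4c, which are proteases of the same family, -0.02 for Atg10, the E2-like enzyme for Atg12, 0.05 for Atg12 (0.00 without SUC_424_02) and 0.03 for Atg16l1 (-0.02 without SUC_424_02).

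All 5 LC3 and GABARAP genes were measured, with 3 positive and 2 negative differences. Map1lc3a had 7.61, 7.92 and 8.23 with palatinose and 7.46, 7.67 and 7.91 with sucrose, a difference of 0.21 (0.01 to 0.42, limma adjusted p = 0.696), with 6 of 7 palatinose arrays above the sucrose mean. Its other probe pointed the other way, at -0.15 (-0.33 to 0.02, limma adjusted p = 0.663 among single probes), so the probes of this gene disagree. Map1lc3b, which encodes the LC3 protein most often followed as a marker of autophagosomes, had 8.01, 8.18 and 8.46 with palatinose and 7.85, 8.14 and 8.91 with sucrose. Its difference was -0.01 (-0.28 to 0.26, limma adjusted p = 0.990), and 0.11 without SUC_424_02, the highest of its arrays.

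Gabarap, of the sister family of LC3, had 10.54, 10.64 and 10.81 with palatinose and 10.47, 10.65 and 11.57 with sucrose, the last again on SUC_424_02. The difference was -0.10 (-0.38 to 0.18, limma adjusted p = 0.877), and 0.04 without that array. Gabarapl1 and Gabarapl2 gave 0.01 and 0.05. These are transcript levels, and conversion of LC3 protein was not measured.

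Of the cargo receptors, Sqstm1 (11.12 ± 0.09 with palatinose and 11.07 ± 0.17 with sucrose, SD, n = 7 each) gave 0.06 and Nbr1, which binds ubiquitin and LC3 as Sqstm1 does, gave -0.04, and -0.06 on its other probe. Of the lysosomal genes, Lamp1, for the main glycoprotein of the lysosomal membrane, gave 0.09 (0.03 without SUC_424_02). Lamp2, whose isoforms take part in fusion with autophagosomes and in chaperone-mediated autophagy, gave -0.06 (-0.02 without it), and -0.22 to -0.04 on 3 other probes. Of the 13 genes with several kept probes, 10 had the same sign on all of them; the exceptions were Map1lc3a, Wipi1 and Wipi2.

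The array SUC_424_02 departed from the rest in many of the 30 genes. On it 15 of the 30 genes had their highest (8) or lowest (7) value of all 14 arrays, or 50% of genes against 44.5% of all features. The autophagy genes were thus extreme there about as often as other transcripts. Counted as over 0.3 from the median of the other arrays, 7 genes were above and 6 below, but 13 above and 1 below with median scaling. To either side these were 43.3% of the genes against 41% of all features, and 46.7% against 49.8% with median scaling. On the other arrays the share with their highest or lowest value was 0% to 23.3% of the 30 genes and 7.43% to 21.9% of all features.

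**Figure D3:**
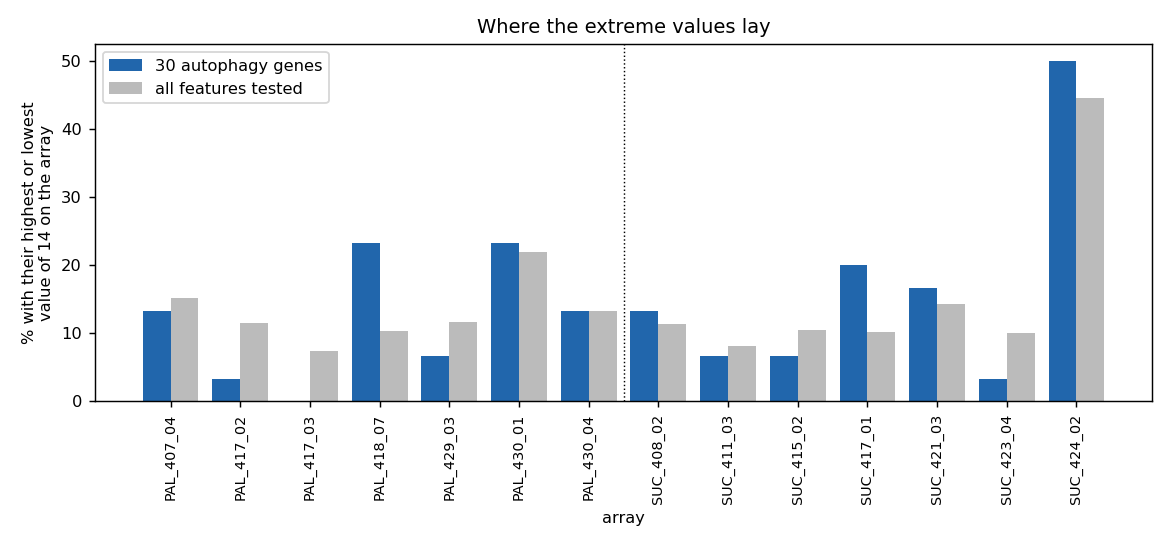
Share of the 30 autophagy genes and of the 8829 features tested that had their highest or lowest value of 14 on each array. SUC_424_02 stands at 50% and 44.5%, and no other array exceeds 23.3%.

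Atg3 had 9.29 on SUC_424_02 and a median of 8.20 on the other 13 arrays. Gabarap had 11.57 there and 10.64 elsewhere, Map1lc3b 8.91 and 8.18, Ulk2 8.37 and 7.77, Atg5 10.30 and 9.74, and Lamp2 12.12 and 11.80. Each of these 6 values lay above the range of the other 13 arrays. Second probes deviated to the same side, by 0.30 for Atg3, 0.41 for Ulk2, 0.28 for Atg5 and 0.33 to 0.51 for Lamp2. The second Atg3 probe was dim, with a mean log2 level of 4.77 and detection on 11 arrays. Its 4.99 on SUC_424_02 lay within the range of the other arrays, under 5.09 on PAL_418_07. Atg101 had 8.25 there and 8.93 elsewhere, Lamp1 11.51 and 11.93, Wipi2 7.44 and 7.86, Atg16l1 8.55 and 8.95, Atg12 8.59 and 8.94, and Atg13 7.64 and 7.99. Each of these lay below the range of the other 13 arrays. Of these 6, Wipi2 has other kept probes, which deviated by 0.21 and -0.04 against -0.41 on its main probe. Some genes whose products act at the same step thus deviated to opposite sides: Ulk2 against Atg13 and Atg101, Atg5 against Atg12 and Atg16l1, and Lamp2 against Lamp1. Others of these steps hardly deviated, such as Ulk1 (0.01), Atg7 (-0.10) and Atg10 (-0.02). With 41% of all features over 0.3 from the median there, the opposite sides are a description and not a trait of these genes. For the 12 genes named above as beyond the range, the signs held without background correction, with cyclic loess and with median scaling. Median scaling put the median deviation of all features on this array at 0.21, against -0.03 in the main values, and under it Atg12 deviated by -0.02, Atg16l1 by -0.06, Atg13 by -0.08 and Lamp1 by -0.10.

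Marker sums are of signals before normalization. The mean signal over all probes was 257 on SUC_424_02 and 190 to 215 on the other arrays. The sums were not scaled for this. The summed signal of 6 stellate cell and fibroblast markers was 4772 on SUC_424_02. It was 2038 to 3578 on palatinose arrays and 2231 to 2913 on the other sucrose arrays. The sum of 6 endothelial markers was also highest on SUC_424_02, at 2743. It was 1697 to 2519 on palatinose arrays and 2074 to 2540 on the other sucrose arrays. Muscle and pancreatic markers were near their lowest on it, at 18 and 233. Their part in the deviation of the array was not tested.

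**Figure D4:**
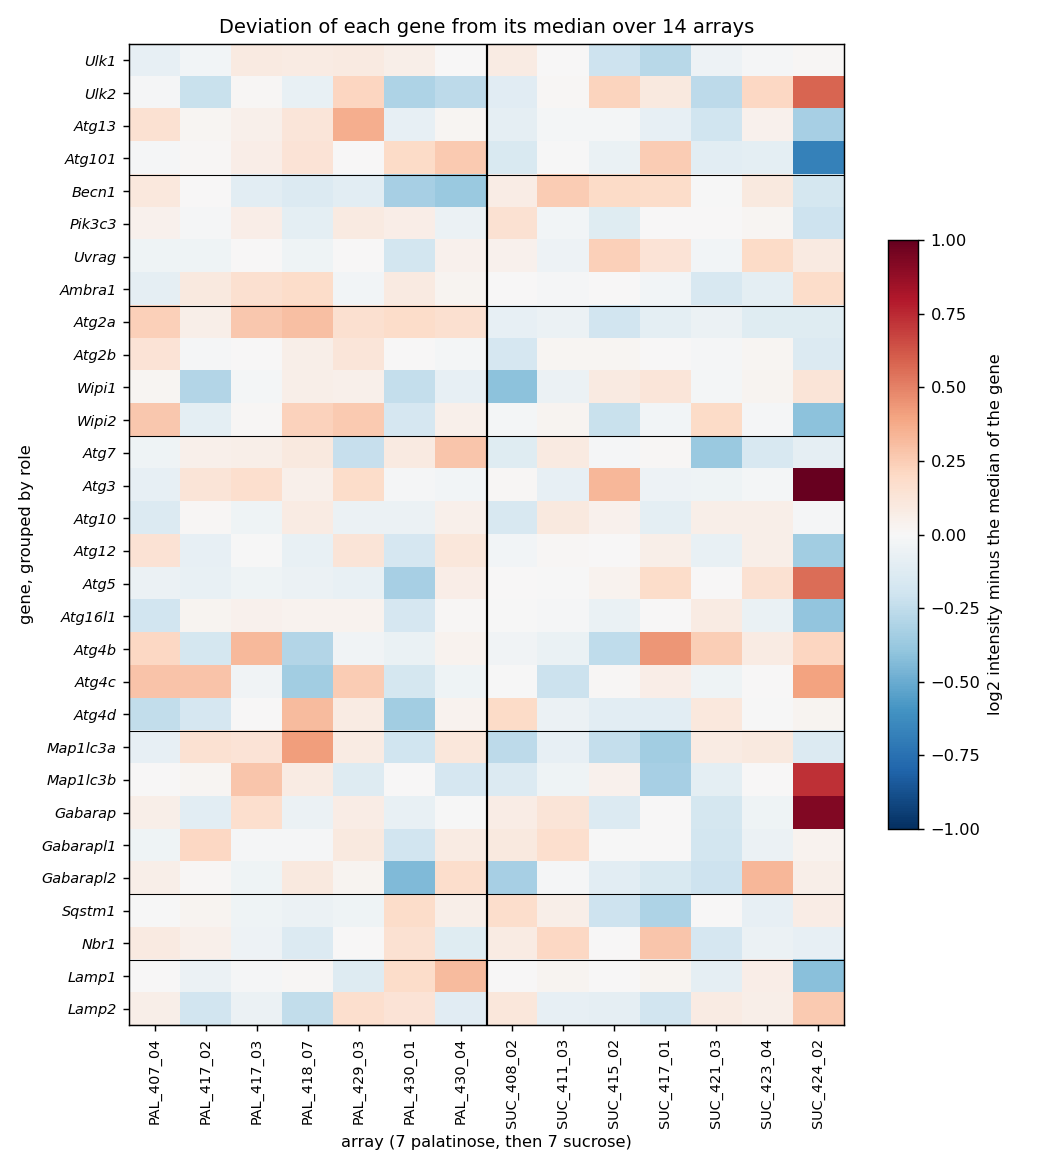
Deviation of each of the 30 genes (rows, by role) from its median over the 14 arrays (columns, palatinose then sucrose), in log2 units; colours saturate at -1 and 1. The column of SUC_424_02 holds the strongest colours, red for Atg3, Gabarap and Map1lc3b and blue for Atg101.

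Across mice the autophagy genes were correlated with a median size like that of other transcripts. After the diet means were taken out, the median Pearson correlation over the 435 pairs of the 30 genes was 0.02, and its median size 0.25, the same as over all 38971206 pairs of features. The share of pairs beyond 0.7 in size was 4.37%, against 3.25% of feature pairs, and this share depended on single arrays. It was 2.3% against 2.21% without SUC_424_02, 7.13% against 4.02% without PAL_430_01 and 6.44% against 4.02% without PAL_430_04. The first principal component held 43% of the variance of the 30 genes, and 23.8% without SUC_424_02. The median SD within diets was 0.16 for the 30 genes and 0.18 for all features, and without SUC_424_02 it was 0.13 and 0.16. The least variable was Atg2a, with an SD of 0.07.

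Of 12 pairs that join partners of 1 step, or the stress factor Ddit3 with a receptor or LC3 gene, 10 were measured. None was correlated at an adjusted p under 0.05 over the 14 arrays, where r and rho keep the difference between the diets. The strongest was Atg5 with Atg16l1, at r = -0.47 (permutation p = 0.105, adjusted 0.538) and rho = -0.22 (permutation p = 0.444, adjusted 0.928). It was 0.56 within palatinose (exact permutation p = 0.225) and -0.91 within sucrose (exact permutation p = 0.0401), -0.10 without the arrays farthest from the median, SUC_424_02 and PAL_430_01, and 0.34 without SUC_424_02 alone. Lamp1 with Lamp2 had r = -0.45 (permutation p = 0.108, adjusted 0.538) and rho = -0.41 (permutation p = 0.147, adjusted 0.928). It was -0.09 within palatinose (exact permutation p = 0.859), -0.74 within sucrose (exact permutation p = 0.0456) and 0.02 without SUC_424_02 and PAL_430_04. Map1lc3b with Sqstm1 had r = 0.23 (permutation p = 0.409, adjusted 0.706) and rho = -0.05 (permutation p = 0.858, adjusted 0.928), with -0.31 within palatinose and 0.36 within sucrose. It was -0.40 without SUC_424_02 and SUC_417_01, and over all arrays 0.36 with cyclic loess and 0.65 with median scaling. The values of these 3 pairs thus rest on the arrays left out. The smallest exact permutation p within a diet was that of Ddit3 with Sqstm1, at r = 0.75 within palatinose (p = 0.0361), against -0.38 within sucrose (exact permutation p = 0.393), with r = 0.13 over all arrays (permutation p = 0.655, adjusted 0.866). These p-values within diets are not adjusted over the 10 pairs. With the diet means taken out, r was -0.48 for Atg5 with Atg16l1, -0.41 for Lamp1 with Lamp2 and 0.24 for Map1lc3b with Sqstm1. It was -0.07 for Ddit3 with Sqstm1, -0.07 for Ulk1 with Atg13 (0.22 with them in) and 0.28 for Becn1 with Pik3c3 (0.08 with them in).

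Genes around the machinery did not pass either. Of 14 other cargo receptors 10 were measured, 4 with a positive and 6 with a negative difference, and 0 passed. Ncoa4, which hands ferritin to autophagy and was also known from earlier results, had 6.53, 6.81 and 7.04 with palatinose and 6.97, 7.28 and 7.56 with sucrose, a difference of -0.47 (limma adjusted p = 0.324). The ranges overlapped slightly, and all 7 palatinose values were under the sucrose mean. Bnip3l, a receptor for mitochondria, gave -0.19, Tax1bp1, a ubiquitin-binding receptor, -0.28 (-0.10 without SUC_424_02) and Stbd1, which tethers glycogen, -0.14. Of 21 other autophagosome factors 19 were measured, 11 positive and 8 negative, and 0 passed. Sh3glb1, which binds the Becn1 complex through Uvrag, gave -0.27 (-0.14 without SUC_424_02), the fusion SNARE Stx17 0.14 (0.09 without it), Vps33a, of the tethering complex at lysosomes, 0.10 and Wdr45b, of the family of Wipi1, -0.13.

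Of 22 genes of mTORC1 and AMPK signalling, the nutrient sensors upstream of ULK, 16 were measured, 9 positive and 7 negative, and 0 passed. Akt1s1, an mTORC1 inhibitor, gave 0.15, the mTOR partner Mlst8 0.16, Fnip1, a folliculin partner, -0.24 (-0.12 without SUC_424_02) and Lamtor2, of the lysosomal anchor of mTORC1, 0.10. Of 35 lysosomal enzymes, membrane proteins and proton pump subunits 29 were measured, 20 positive and 9 negative, a median of 0.05 against 0.01 over all features, and 0 passed. Psap, the precursor of saposins, had 11.94, 12.12 and 12.31 with palatinose and 11.57, 11.83 and 12.10 with sucrose, a difference of 0.28 (limma adjusted p = 0.655). Hexa, a hexosaminidase subunit, gave 0.23, the cathepsin Ctsz 0.17 and Atp6v1d, of the proton pump, -0.14 (-0.09 without SUC_424_02).

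Of 11 transcription factors that act on autophagy genes 8 were measured, 3 positive and 5 negative, and 0 passed. Ddit3 (CHOP) had 6.00, 6.16 and 6.34 with palatinose and 5.49, 5.82 and 5.97 with sucrose. Every palatinose array lay above every sucrose array, as for 0.0906% of all features. The difference of Ddit3 was 0.40 (limma adjusted p = 0.485), and 0.35 without SUC_424_02, where its lowest value lay. Tfe3, a relative of TFEB, gave 0.18, Ppara, the fasting receptor for fatty acids, -0.28, and Nr1h4 (FXR), the bile acid receptor, -0.11. Without SUC_424_02 they gave 0.13, -0.25 and -0.13.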

How the data were processed

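Per the labels' protocols, total RNA of each liver went through RNeasy with a DNase step and was labelled with the TotalPrep kit. One deposited table, not normalized, holds linear probe intensities and a detection p-value per probe and array, per the file headers; 23% to 26.4% of an array's intensities lie below 0, so background had been subtracted. The authors' second table holds deposited linear intensities, with a median of 21 over all its values, made by a method not given in the sources used here. Its columns carry replicate numbers, those of the first table only the diet.

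Intensities were background corrected with neqc of limma 3.58.1 (R 4.3.3; offset 16, quantile normalization, log2). Probes were named by the platform annotation: 23978 have 1 gene and 1719 none. Of 11628 kept probes, the brightest per gene was tested, over 8829 features, by lmFit and eBayes, two-sided, adjusted by Benjamini-Hochberg. Titles call arrays biological replicates. The code was tested on simulated data. Precision is limited by the number of arrays.

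Genes, lists and pairs were chosen with earlier results of these data known. Values were given in full for the 5 genes with the smallest p and the 5 with the largest SD within diets; the 4 genes with the smallest p were named per surrounding list. Correlations used 100000 resamples. Alternatives were background, normalization, filter, offset, probe rule, variance model, array weights, blocks (statmod 1.5.0) and left-out arrays. The labels do not say whether the replicate numbers mark pairs. Same-numbered arrays correlated at -0.23 to 0.16 after the diet means were taken out, which cannot decide it.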

Additional observations from a re-analysis of the deposited data

Results flagged for a closer look

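Of 60 groups (30 genes by 2 diets), 11 (18.3%) had 1 array far from the other 6, as did 10.7% of such groups over all features. The rule flags about 1 in 20 groups of independent normal values. The groups here share arrays, so their flags are not independent, and most of the 11 lay on SUC_424_02. On SUC_424_02 the far value was the highest for Atg3 (9.29, the next sucrose array 8.54), Atg5 (10.30, next 9.93), Map1lc3b (8.91, next 8.22) and Gabarap (11.57, next 10.77). It was the lowest for Atg12 (8.59, next 8.86), Atg16l1 (8.55, next 8.88) and Lamp1 (11.51, next 11.84). On PAL_430_01 the far value was the lowest for Uvrag (7.76, next 7.90), Atg5 (9.41, next 9.67) and Gabarapl2 (4.55, next 4.95, close to the offset). On SUC_408_02 it was the lowest for Wipi1 (6.44, next 6.79). Array weights estimated by limma were 0.20 for SUC_424_02, the smallest of 14, and 0.63 for PAL_430_01.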

How the results depend on the processing

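Across 29 alternatives, 2 of them chosen after seeing the data, 0 features passed in 28. Without the filter on dim probes, 1 of 18312 features and 1 of 33 autophagy genes passed, both times Atg2a (0.30, limma adjusted p = 0.0317, which ran from 0.0317 to 0.902 over its alternatives); the cause was not tested. With the authors' values and the replicate block 0 features passed (smallest limma adjusted p = 0.546), as with the authors' values alone (0.222). The block changed no call, and whether the numbers mark pairs is not stated. The column code as a random block gave 0 calls at a consensus correlation of 0.362. Only the codes 417 and 430 recur, the latter on palatinose arrays alone, so this estimate rests on their arrays. The mean difference of the autophagy genes kept in each alternative (26 to 33, or 47 single probes) ran from -0.02 to 0.04, and from 0.01 to 0.03 when 1 array was left out. Atg2a, Becn1, Atg13, Atg5, Map1lc3a, Ulk2 and Atg4b kept their sign in every alternative run for them, Map1lc3a at 0.03 with averaged probes. The variance model, the filters and the test of single probes gave the same estimate from the main probe, so they add no check of a sign. The other probe of Map1lc3a, at -0.15, entered the value of this gene only with averaged probes. The sign turned with array weights for Atg3 (0.02), Gabarap (0.01) and Map1lc3b (0.12), and without SUC_424_02 and PAL_430_01 together for Atg3 (0.05), Gabarap (0.05) and Map1lc3b (0.11). Map1lc3b was also 0.05 with the column code as a block. Leaving out 1 array gave -0.16 to 0.04 for Atg3, -0.15 to 0.04 for Gabarap and -0.07 to 0.11 for Map1lc3b. Without the 5 arrays with muscle or pancreatic markers (4 palatinose and 5 sucrose arrays left), Ulk2 was -0.37, Gabarap -0.27, Atg4b -0.26 and Atg13 0.12. Correlations that turned sign were Map1lc3b with Gabarapl1 (0.16 with cyclic loess, 0.57 with median scaling), and with median scaling Sqstm1 with Nbr1 (0.34), Atg5 with Atg12 (0.18) and Atg5 with Atg16l1 (0.02). Without SUC_424_02 and PAL_430_01, Atg5 with Atg12 was 0.22 and Ddit3 with Map1lc3b 0.34. Leaving out 1 array, they ran from -0.63 to 0.53 for Atg5 with Atg12, -0.76 to 0.34 for Atg5 with Atg16l1, -0.40 to 0.33 for Ddit3 with Map1lc3b, -0.04 to 0.34 for Map1lc3b with Sqstm1, -0.12 to 0.02 for Map1lc3b with Gabarapl1, -0.28 to 0.38 for Sqstm1 with Nbr1, -0.09 to 0.22 for Becn1 with Pik3c3 and -0.05 to 0.28 for Ddit3 with Sqstm1. Signals near the background limit what can be said of Atg4b, Atg4c, Atg4d and Gabarapl2.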
